A study of Homo sapiens with 12 samples.

Results

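The baseline difference between U2932 and TMD8, 2 human cell lines of diffuse large B-cell lymphoma (DLBCL), was read from the libraries of both lines that received a control antibody. The comparison took the 4 isotype control libraries, 2 per line, out of 12 in the series, and its 2 groups were set by the cell line and antibody named in the sample labels. The study treated both lines with the anti-CD20 antibodies rituximab or ofatumumab, or with a human IgG1 isotype that does not bind CD20, at 20 µg/mL for 4 h, and sequenced total RNA. Both lines were unmodified (genotype WT), grew in RPMI medium with heat-inactivated serum, and were split and kept apart for a week before treatment to give the replicates. A replicate is therefore a separate culture of the same line and not another patient or another line, and each line is 1 example of its disease. The methods and the results of the study list both lines under the activated B-cell subtype of DLBCL. Only a figure caption of it places U2932 in the germinal centre subtype.

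DLBCL is a tumour of mature B cells, and its main subtypes are named after the stage of B-cell development that their expression resembles. Germinal centre B cells depend on the repressor BCL6 and carry CD10 (encoded by MME) and CD38, whereas the activated B-cell subtype expresses IRF4, signals through the B-cell receptor, MYD88 and NF-kB, and holds some features of the cells on their way to becoming plasma cells. Plasma cells are driven by PRDM1 and XBP1 and fill themselves with the machinery of immunoglobulin secretion.

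The isotype libraries held 20244698 and 21191535 counts in U2932, and 18377047 and 27110612 counts in TMD8. Mitochondrial transcripts made up 6.13% and 6.37% of the counts in U2932, and 5.81% and 3.99% in TMD8. The replicates of U2932 were closer to each other (median absolute log2 difference 0.175) than those of TMD8 (0.366), and the median absolute difference between the lines was 0.789. The chi-square per degree of freedom was 10.77 between the U2932 replicates and 106.3 between the TMD8 replicates, so neither pair agreed within sampling noise. Levels below are CPM, the count scaled to a common library size with TMM factors, given for replicate 1 and then replicate 2 of a line, and a difference is the log2 of U2932 minus TMD8, with its standard error (SE). A positive difference is therefore a higher level in U2932. CPM is not corrected for gene length, so it compares the same gene between lines and not one gene with another. In a population of cells, fewer cells that express a gene and less RNA of it per cell cannot be told apart.

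After removal of genes with few counts, 15652 of 58884 genes were tested. By edgeR's quasi-likelihood test, 6372 (40.7%) differed at an adjusted p under 0.05 and by at least 2-fold, and these are the genes called higher below. They comprised 3243 genes (20.7%) higher in U2932 and 3129 (20%) higher in TMD8. The plot of all tested genes shows how wide the differences were. A further view came from the antibody-treated libraries of the same lines, which entered no main value. By the methods of the study they came from the same split cultures as the isotype libraries, so they are not independent replicates. In the rituximab libraries, 85.3% of the 5805 called genes that could be tested were called in the same direction and 3 in the opposite direction. In the ofatumumab libraries, 86.2% of 5766 were called in the same direction and 0 in the opposite direction. Of 216 genes named in the text, 15 kept their direction but lost their call in the rituximab libraries, and 9 did so in the ofatumumab libraries. Those in both sets were CCR7, CD40, CD46, CD86, HSP90AB1, HSPA8 and LTB. Those in the rituximab libraries alone were ATM, CD59, MYD88, NFKB2, PAX5, PTMA, TGFB1 and TLR1. Those in the ofatumumab libraries alone were EEF1A1 and GBP2, and GBP2 was reversed in the rituximab libraries. A permutation of 2 against 2 libraries can give no 2-sided exact p below 0.333, so the p-values rest on edgeR's model of the spread across all genes.

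**Figure D1:**
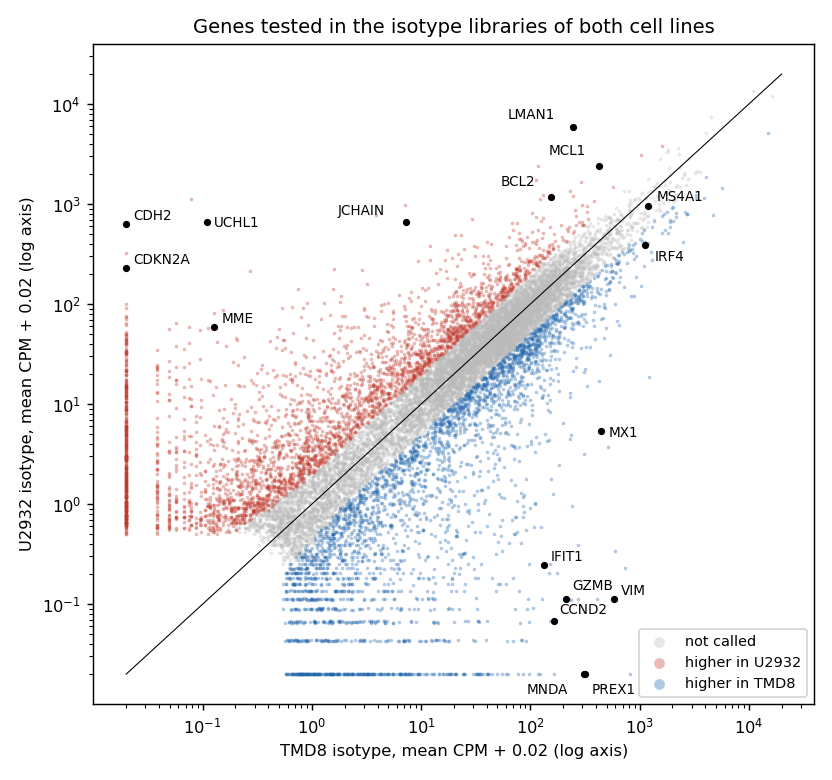
Mean CPM of each tested gene in the 2 TMD8 isotype libraries (horizontal, log axis) against the 2 U2932 isotype libraries (vertical, log axis), with 0.02 added so that genes without a count can be drawn. Red points are higher in U2932 and blue points higher in TMD8, the black line marks equal levels, and the named genes include CDH2, at 632 CPM in U2932 and without a count in TMD8.

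Many genes were present in one line and without a single count in the other. There were 418 tested genes with no count in either TMD8 library, 265 of them protein-coding. Another 284 had no count in either U2932 library, 188 of them protein-coding. Genes of both kinds passed the count filter through the other line alone, so their direction was fixed by the filter. The largest difference of a protein-coding gene was that of CDH2, which encodes the cell adhesion molecule N-cadherin. CDH2 stood at 612 and 652 CPM in the U2932 libraries and had no count in either TMD8 library, which made it at least 9240-fold higher in U2932 (pooled counts against a floor of 3 counts over the 2 libraries). The desmosomal cadherin DSG2 (97.1 and 102 CPM), the mechanically gated channel PIEZO2 (49.8 and 54.6 CPM), the transcription factor ZBTB7C (75 and 67.3 CPM) and EPB41L2, which links membrane proteins to the cytoskeleton (46.4 and 52.6 CPM), were also read in U2932 alone. These genes, which include several of epithelial and neural adhesion, were thus seen in a lymphoid line. UCHL1, a ubiquitin hydrolase of neurons that germinal centre B cells also express, was at 657 and 668 CPM in U2932 and at 0.177 and 0 CPM in TMD8. The ratio of its counts was 9680 (95% counting interval 3310 to 46900).

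Among the genes read in TMD8 alone, PREX1, a guanine nucleotide exchange factor that activates Rac, was at 199 and 429 CPM in TMD8 and had no count in U2932. The TMD8 replicates of PREX1 lay well apart, far above the U2932 libraries. MNDA, an interferon-inducible nuclear protein of myeloid and B cells, was at 380.5 and 240.4 CPM, and the inhibitory receptor LILRB4 at 163 and 165 CPM, both with no count in U2932. The corepressor TLE1 (61.1 and 91.6 CPM), the kinase CDC42BPA (46.7 and 72 CPM), the membrane protein glycophorin C (GYPC, 49.9 and 34.6 CPM) and MS4A6A, a relative of CD20 (51.7 and 36.6 CPM), followed the same pattern. Genes that are normally restricted to germ cells belonged here as well. GTSF1, of the piRNA pathway, was at 142 and 94 CPM, CT45A1 at 117 and 77.5 CPM and MAGEB1 at 73.1 and 52 CPM, each with no count in U2932. Of 29 cancer-testis antigen genes listed, 4 had enough counts to be tested and 3 were higher in TMD8, among them PRAME at 95.9 and 118 CPM in TMD8 and 0.141 and 0 CPM in U2932. CT45A1 and PRAME passed the count filter through TMD8 alone. Their direction was thus fixed by the filter, and the count does not describe the listed family.

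Genes of B-cell identity were expressed in both lines, but at unequal levels. Of 28 pan-B genes, all of them tested, 6 (21.4%) were higher in U2932 and 11 (39.3%) in TMD8, against 20.7% and 20% of all genes. Their median difference was -0.37 against -0.01 over all genes tested. The defining genes MS4A1, CD79A, CD79B and PAX5 were detected in all 4 libraries. MS4A1, which encodes CD20, the target of both therapeutic antibodies, was at 902 and 993 CPM in U2932 and 1399 and 989 CPM in TMD8. The groups overlapped for MS4A1, and its difference of -0.33 ± 0.27 (SE) did not pass the test (edgeR adjusted p = 0.3291), with a 95% confidence interval from -0.94 to 0.27. CD24, a surface glycoprotein that serves as a phagocytosis checkpoint, was at 0.943 and 0.953 CPM in U2932 and 247 and 235 CPM in TMD8, 254-fold higher in TMD8 (edgeR adjusted p = 3.26e-07). The lines did not overlap for CD24, which had 20 and 21 counts in the U2932 libraries. The transcription factor SPIB differed by -2.79 ± 0.26, POU2F2 by -1.93 ± 0.26, and PAX5 by -1.02 ± 0.31, all higher in TMD8. PAX5 was only just past the limits. Its difference was -0.50 without TMD8 replicate 2 and from -0.98 to -0.91 under other scalings, a length correction or a replicate block, all short of 2-fold, and it was not called without U2932 replicate 1 or 2 (edgeR adjusted p = 0.106 and 0.19). The surface proteins CD72 (-3.34 ± 0.23) and CD37 (-2.21 ± 0.28) were also higher in TMD8. In the other direction, POU2AF1, the coactivator of octamer-binding factors in B cells, was at 414 and 351 CPM in U2932 and 50.2 and 69.5 CPM in TMD8, and the kinase BLK (2.16 ± 0.24) was higher in U2932 too.

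**Figure D2:**
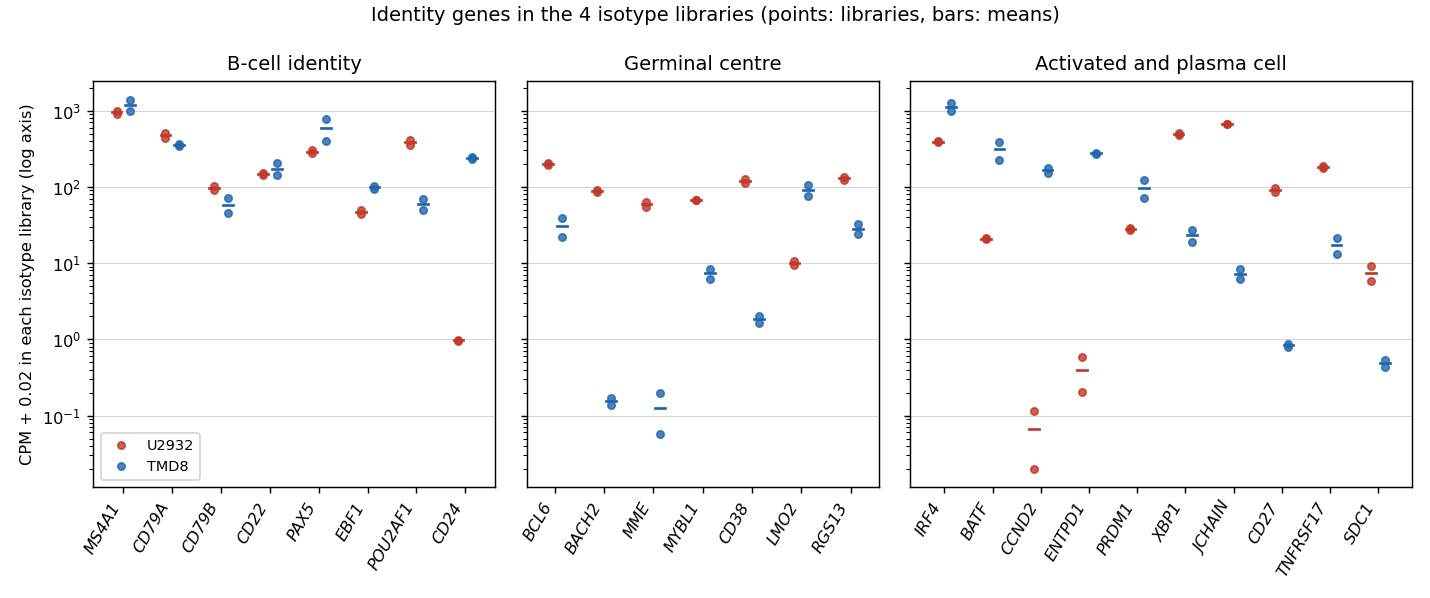
CPM (with 0.02 added, log axis) of genes of B-cell identity, the germinal centre, and activated B cells and plasma cells in each of the 4 isotype libraries, with points for libraries and bars for the mean of each line. MS4A1 overlaps between the lines, whereas BACH2, MME and CD38 sit far higher in U2932 and CCND2 and ENTPD1 far higher in TMD8.

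The germinal centre genes leaned towards U2932. Of 26 listed, 25 were tested, with a median difference of 1.88. Of these, 14 (56%) were higher in U2932 and 4 (16%) in TMD8, against 20.7% and 20% of all genes. BCL6 was at 207 and 192 CPM in U2932 and 22 and 38.6 CPM in TMD8 (2.71 ± 0.29, edgeR adjusted p = 4.05e-05). MME was at 55.1 and 63.5 CPM in U2932 and 0.177 and 0.0371 CPM in TMD8, and BACH2, a repressor that holds back plasma cell differentiation, was at 85.9 and 89.96 CPM in U2932 and 0.118 and 0.148 CPM in TMD8. Both genes were thus at a few counts per library in TMD8. CD38 was 66.4-fold higher in U2932, KLHL6 24.1-fold, the inositol kinase ITPKB 12.5-fold and the MYB relative MYBL1 9.22-fold. The list did not move as a whole. LMO2, a transcriptional adaptor of germinal centre cells, was at 9.53 and 10.6 CPM in U2932 and 105 and 75.5 CPM in TMD8, 8.96-fold higher in TMD8 (edgeR adjusted p = 6e-06). DENND3 (-4.19 ± 0.29) was higher in TMD8 too.

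Genes that mark the activated subtype and genes of plasma cells, taken as 1 list, differed in both directions. Of its 31 members, 8 (25.8%) were higher in U2932 and 11 (35.5%) in TMD8, against 20.7% and 20% of all genes. The median was -0.03. IRF4 was at 396 and 383 CPM in U2932 and 978 and 1271 CPM in TMD8, 2.89-fold higher in TMD8 (edgeR adjusted p = 0.0006931), so it was expressed in both lines. PRDM1 differed by -1.80 ± 0.27 and BATF, which binds DNA together with IRF4, by -3.90 ± 0.31, both higher in TMD8. Cyclin D2 (CCND2) was at 0.0943 and 0 CPM in U2932 and 152 and 178 CPM in TMD8, and ENTPD1, which encodes the ectonucleotidase CD39, was at 0.566 and 0.182 CPM in U2932 and 267 and 282 CPM in TMD8. U2932 thus all but lacked both transcripts. The Lymph2Cx panel is a clinical assay of the cell of origin. Of its 8 genes that mark the activated subtype, 4 (50%) were higher in TMD8 and 0 in U2932. Of its 7 that mark the germinal centre subtype, 6 were tested, 4 (66.7%) were higher in U2932 and 0 in TMD8. Without TMD8 replicate 2, 1 of the former was higher in U2932, and 4 were still higher in TMD8. With at least 10 counts required in every library, 2 of the germinal centre genes of the panel were higher in U2932. Among the members of the combined list higher in U2932, XBP1 was at 478 and 515 CPM in U2932 and 27.4 and 18.7 CPM in TMD8, 21.6-fold higher in U2932 (edgeR adjusted p = 1.497e-06). JCHAIN, which joins the units of polymeric immunoglobulin, was at 661 and 658 CPM in U2932 and 8.22 and 6.24 CPM in TMD8. The memory and plasma cell receptor CD27 was 113-fold higher in U2932, the B-cell maturation antigen TNFRSF17 10.6-fold, SDC1 (CD138) 15.9-fold and the chaperone MZB1 4.06-fold.

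Among 18 immunoglobulin genes listed, 14 were tested. Of these, 4 (28.6%) were higher in U2932 and 8 (57.1%) in TMD8, against 20.7% and 20% of all genes. The 8 became 4 with at least 10 counts required in every library. Summed over the list, the level was 4924 to 5788 CPM in the U2932 libraries and 2189 to 2238 CPM in those of TMD8. The µ heavy chain gene IGHM was at 3455 and 2712 CPM in U2932 and 931 and 1147 CPM in TMD8, and the κ light chain gene IGKC was at 1548 and 1440 CPM and 717 and 436 CPM, so both lines carried IgM and κ transcripts, at 2.97-fold and 2.59-fold higher levels in U2932. IGHG2 was at 182 and 292 CPM in TMD8 and 0 and 0.182 CPM in U2932, and IGHG1 at 55.7 and 84.6 CPM and 0.377 and 0.590 CPM. The γ genes are near-identical copies, so how counts were split between them is uncertain.

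The 39 genes of B-cell receptor signalling, all of them tested, had a median of -0.79. Of these, 8 (20.5%) were higher in U2932 and 16 (41%) in TMD8, against 20.7% and 20% of all genes. CD79A and CD79B, the signalling subunits of the receptor, did not reach the limits, with differences of 0.42 ± 0.22 and 0.73 ± 0.25. The proximal kinases SYK (194 and 175 CPM in U2932, 435 and 555 CPM in TMD8) and LYN (148 and 138 CPM, 389.5 and 497 CPM) were 2.69-fold and 3.1-fold higher in TMD8. Several inhibitors of the pathway were also higher in TMD8. The phosphatase PTPN6 (SHP-1) was at 13.6 and 12 CPM in U2932 and 199.9 and 257 CPM in TMD8, 17.9-fold higher in TMD8 (edgeR adjusted p = 1.144e-06). The inhibitory Fc receptor FCGR2B was 6.13-fold higher in TMD8, and the inhibitory receptor CD5 was at 22.1 and 28 CPM in TMD8 with no count in U2932. Genes higher in U2932 included the kinase TEC (20 and 23.1 CPM in U2932, 0.947 and 1.37 CPM in TMD8) and the paracaspase MALT1 (212 and 239 CPM, 75.5 and 71.4 CPM), which carries the signal to NF-kB. BTK, the target of ibrutinib, differed by -0.85 ± 0.22 and did not reach the 2-fold limit. Without TMD8 replicate 1 CD79B was called at 1.08, and without TMD8 replicate 2 BTK was called at -1.04.

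Toll-like receptor and MYD88 genes were divided in a like manner, with a median of -0.26. Of 22 tested members, 5 (22.7%) were higher in U2932 and 9 (40.9%) in TMD8, against 20.7% and 20% of all genes. MYD88, the adaptor of these receptors, was at 35.4 and 36.3 CPM in U2932 and 106 and 114 CPM in TMD8 (-1.62 ± 0.21, edgeR adjusted p = 0.0001243). TLR7 (-1.48 ± 0.21), UNC93B1, which carries nucleic acid receptors to the endosome (-2.89 ± 0.24), and the transcription factor IRF5 (-2.69 ± 0.26) were higher in TMD8, and CD180 was at 0.236 and 0.363 CPM in U2932 and 57.6 and 40.4 CPM in TMD8. IRF8, a factor of germinal centre B cells and of myeloid cells, was the opposite, at 424 and 381 CPM in U2932 and 44.5 and 42.4 CPM in TMD8, and TLR1 was 5.28-fold higher in U2932.

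For NF-kB, 10 of 41 tested genes (24.4%) were higher in U2932 and 14 (34.1%) in TMD8, against 20.7% and 20% of all genes. The median was -0.23. The subunit gene NFKB2 (-1.61 ± 0.24) and the nuclear IkB proteins BCL3 (-2.69 ± 0.25) and NFKBIZ (4-fold) were higher in TMD8. The ubiquitin ligase BIRC3, a target of the pathway, was at 325 and 398 CPM in U2932 and 118 and 77.1 CPM in TMD8, and the chemokine CCL4 (2.24 ± 0.31) and the cytokine lymphotoxin beta (LTB, 1.21 ± 0.23) were also higher in U2932. Targets of NF-kB therefore appeared on both sides.

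Of 54 cytokine and chemokine genes, 35 were tested. Of these, 11 (31.4%) were higher in U2932 and 17 (48.6%) in TMD8, against 20.7% and 20% of all genes. With at least 10 counts required in every library, 6 were higher in U2932 and 11 in TMD8. IL6 passed the count filter through TMD8 alone and TNFSF8 through U2932 alone, so their direction was fixed by the filter. IL10 was at 4.10 and 5.36 CPM in U2932 and 58 and 35.7 CPM in TMD8, and IL6 at 0.141 and 0.0454 CPM and 10.7 and 7.54 CPM. EBI3, a subunit of IL-27 and IL-35, was 19-fold higher in TMD8, and CXCL13, which draws B cells into follicles, was at 0.189 and 0.499 CPM in U2932 and 26.7 and 11.1 CPM in TMD8. TNFSF8, the ligand of CD30, was seen in U2932 (17 and 18.2 CPM) with 0 and 0.0371 CPM in TMD8. The receptors and mediators that lie downstream of such cytokines leaned to TMD8. Of 36 tested JAK, STAT, SOCS and PIM genes, 3 (8.33%) were higher in U2932 and 17 (47.2%) in TMD8. The shares over all genes were 20.7% and 20%, and the median of the list was -0.60. STAT3 was at 92.5 and 94.9 CPM in U2932 and 413 and 533 CPM in TMD8, 5.05-fold higher in TMD8 (edgeR adjusted p = 3.133e-05). SOCS3, the feedback inhibitor that STAT3 induces, was at 1.32 and 1.77 CPM in U2932 and 74.4 and 70.9 CPM in TMD8. IL2RB, a subunit of the IL-2 and IL-15 receptors, was at 5.57 and 2.59 CPM in U2932 and 70.4 and 171 CPM in TMD8, and its TMD8 replicates lay well apart without reaching the U2932 values. The members higher in U2932 were STAT4 (3.70 ± 0.38), IL6ST, the shared signal transducer of IL-6 family cytokines (3.07 ± 0.23), and IL4R, at 229.5 and 183 CPM in U2932 and 10.4 and 16.9 CPM in TMD8.

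The bar plot of gene lists shows where the members of each list fell.

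**Figure D3:**
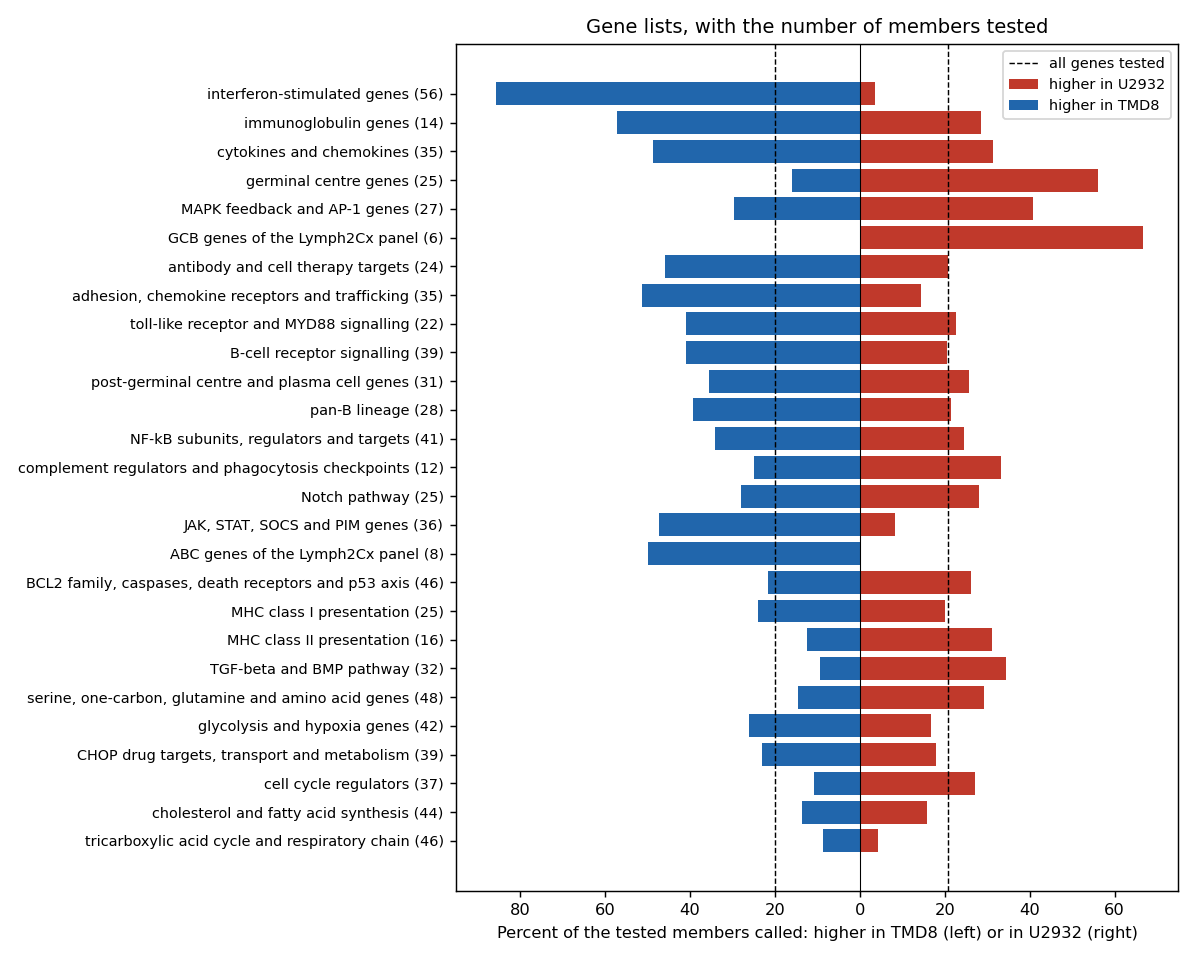
Percent of the tested members of each list that were higher in TMD8 (blue, to the left) or in U2932 (red, to the right), with the number tested in brackets and dashed lines for all genes tested (20% and 20.7%). Interferon-stimulated genes stand furthest to the left at 85.7%, and the respiratory chain list has the shortest pair of bars.

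Interferon-stimulated genes showed the most one-sided counts in the plot of gene lists. Of 61 listed, 56 were tested, 48 (85.7%) were higher in TMD8 and 2 (3.57%) in U2932, against 20% and 20.7% of all genes, with a median difference of -2.72. IFIT1, which binds viral RNA, was at 0.0943 and 0.363 CPM in U2932 and 159 and 107 CPM in TMD8 (-9.13 ± 0.46, edgeR adjusted p = 4.679e-07). MX1, an antiviral GTPase, was at 4.91 and 5.81 CPM in U2932 and 407 and 484 CPM in TMD8. ISG15, a ubiquitin-like modifier, was at 4.76 and 5.17 CPM in U2932 and 169.9 and 102 CPM in TMD8. The groups did not overlap for any of these genes, and IFIT1 was nearly absent from U2932. IFI44L was 205-fold higher in TMD8, XAF1 187-fold, IFIT3 107-fold, the restriction factor TRIM22 19.8-fold and the RNA sensor enzyme OAS2 9.03-fold. IRF7, a transcription factor of the response, was at 21.5 and 16.4 CPM in U2932 and 63.3 and 72.1 CPM in TMD8. The 2 members higher in U2932 were GBP2 (1.24 ± 0.39) and SLFN13, at 78.4 and 84.2 CPM in U2932 and 4.73 and 6.31 CPM in TMD8, and GBP2 was not called without U2932 replicate 1 (edgeR adjusted p = 0.119) and differed by 0.75 without TMD8 replicate 2. The interferon genes IFNB1, IFNG and IFNL1 had too few counts to be tested, and the labels name no interferon treatment.

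**Figure D4:**
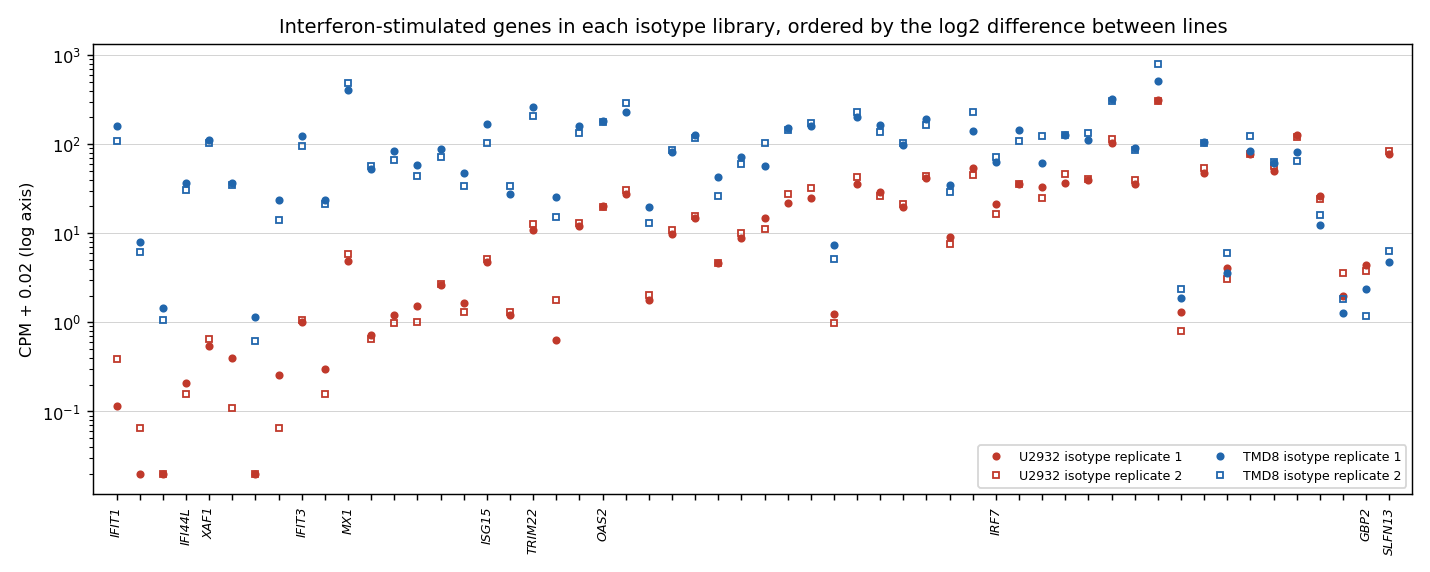
CPM (with 0.02 added, log axis) of the 56 tested interferon-stimulated genes in each isotype library, ordered by the log2 difference from the most TMD8-sided on the left to the most U2932-sided on the right, with names for the members described in the text. Blue symbols (TMD8) lie above red ones (U2932) over most of the plot, and SLFN13 at the right end is reversed.

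Interferon acts on its targets through a short element that STAT and IRF proteins bind. Its core was searched as GAAANNGAAA on both strands (TTTCNNTTTC on the other) in the 250 bases before each start site in the RefSeq promoters of GRCh38.p14, overlapping matches included. It was found in 19 of 35 (54.29%) promoters of the interferon-stimulated genes higher in TMD8, in 2 of 6 (33.33%) of the tested members that were not, in 2.64% of 10859 promoters of tested genes, and in 3.07% of all 27195 promoters. The MX1 window held no match to these letters. Promoters of genes that carried the difference are given here, 5′ to 3′ on the strand of the gene and with the matches in capitals, so that the element can be seen in place. IFIT1 lies at chr10:89392373-89392622 (plus strand), IFIT3 at chr10:89327747-89327996 (plus strand) and ISG15 at chr1:1013247-1013496 (plus strand).
IFIT1: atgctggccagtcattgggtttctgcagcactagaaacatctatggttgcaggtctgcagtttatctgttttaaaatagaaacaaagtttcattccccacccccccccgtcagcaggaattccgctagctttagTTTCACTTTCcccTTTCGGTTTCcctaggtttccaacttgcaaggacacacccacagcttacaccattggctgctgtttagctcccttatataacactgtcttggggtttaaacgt
IFIT3: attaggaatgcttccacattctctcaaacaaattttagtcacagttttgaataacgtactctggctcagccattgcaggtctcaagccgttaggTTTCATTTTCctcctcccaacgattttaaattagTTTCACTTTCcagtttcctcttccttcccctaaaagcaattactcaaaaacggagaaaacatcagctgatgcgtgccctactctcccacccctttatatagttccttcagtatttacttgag
ISG15: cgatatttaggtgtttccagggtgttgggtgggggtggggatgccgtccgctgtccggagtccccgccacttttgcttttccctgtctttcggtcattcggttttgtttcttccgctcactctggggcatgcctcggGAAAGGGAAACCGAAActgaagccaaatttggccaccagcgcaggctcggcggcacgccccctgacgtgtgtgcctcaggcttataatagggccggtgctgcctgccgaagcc
Each of them held 2 matches, in ISG15 sharing 4 bases, and in IFIT1 the matches began 116 and 103 bases before the start site.

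Targets of approved or tested antibodies and cell therapies were spread over both lines. Of 24 tested members, 5 (20.8%) were higher in U2932 and 11 (45.8%) in TMD8, against 20.7% and 20% of all genes. CD38, described above, and CD52, the target of alemtuzumab (46 and 40.4 CPM in U2932, 2.78 and 1.78 CPM in TMD8), were higher in U2932. The checkpoint ligand CD274 (PD-L1) was at 2.83 and 2.77 CPM in U2932 and 76.5 and 65.3 CPM in TMD8, 25.3-fold higher in TMD8 (edgeR adjusted p = 5.575e-07). FCRL5 was at 65 and 77 CPM in U2932 and 393 and 504 CPM in TMD8, and the costimulatory molecules CD40 (-1.21 ± 0.21), CD70 (-1.61 ± 0.21), CD80 (-1.86 ± 0.24) and CD86 (-1.60 ± 0.26) were all higher in TMD8. In the rituximab libraries CD40 and CD86 differed by -0.54 and -0.77, and in the ofatumumab libraries by -0.47 and -0.45, all short of 2-fold. CD79B, bound by an antibody-drug conjugate, was not called.

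Proteins that shield cells from complement and from phagocytosis bear on anti-CD20 antibodies, which kill in part by these routes. Of 15 listed, 12 were tested. Of these, 4 (33.3%) were higher in U2932 and 3 (25%) in TMD8, against 20.7% and 20% of all genes. The complement regulators CD46 (175 and 183 CPM in U2932, 94.2 and 79.6 CPM in TMD8) and CD59 (59.2 and 62.4 CPM, 28.8 and 22 CPM) were 2.06-fold and 2.4-fold higher in U2932, while CD55 differed by 0.41 ± 0.22 and did not pass the test (edgeR adjusted p = 0.1415). CD46 fell short of 2-fold without TMD8 replicate 2 (0.90), with a GC content correction (0.91), and in the rituximab (0.74) and ofatumumab (0.95) libraries, and it was not called without U2932 replicate 2 (edgeR adjusted p = 0.0697). QPCT, a glutaminyl cyclase, was at 92.1 and 91.5 CPM in U2932 and 0.592 and 0.446 CPM in TMD8. CD47, the ligand of the phagocyte receptor SIRPα, was higher in TMD8 by less than 2-fold (-0.84 ± 0.20).

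Adhesion and trafficking genes leaned to TMD8, with a median of -1.05. Of 35 tested members, 5 (14.3%) were higher in U2932 and 18 (51.4%) in TMD8, against 20.7% and 20% of all genes. The hyaluronan receptor CD44 was at 66 and 70.3 CPM in U2932 and 559 and 686 CPM in TMD8. KLF2, the factor that maintains receptors for exit from lymphoid tissue, was at 0.0943 and 0 CPM in U2932 and 32.5 and 33.6 CPM in TMD8. Its target S1PR1 (-2.85 ± 0.23) was higher in TMD8 too, as were the lymph node homing receptor CCR7 (-1.80 ± 0.25) and the lectin LGALS1 (-3.48 ± 0.32). In U2932, the tetraspanin CD9 was at 106 and 108 CPM against 9.76 and 6.35 CPM in TMD8, and ICAM2 was 13.8-fold higher.

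Antigen presentation differed in parts. In the class I list, 5 of 25 tested members (20%) were higher in U2932 and 6 (24%) in TMD8, close to the 20.7% and 20% of all genes. HLA-C was at 94.6 and 77 CPM in U2932 and 22.8 and 24.7 CPM in TMD8, while the lipid-presenting CD1C (0.990 and 1.32 CPM in U2932, 63.1 and 43.9 CPM in TMD8) and CD1D (-5.29 ± 0.36) were higher in TMD8. Without U2932 replicate 1, 3 members of the list were higher in U2932. In the class II list, 5 of 16 tested members (31.2%) were higher in U2932 and 2 (12.5%) in TMD8, 43.8% called against 40.7% of all genes. HLA-DMA, which loads peptide onto class II molecules, was at 46.2 and 52 CPM in U2932 and 12 and 7.20 CPM in TMD8. HLA genes are polymorphic and share sequence, so their counts are less certain than those of other genes.

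Of 46 tested survival and death genes, 12 (26.1%) were higher in U2932 and 10 (21.7%) in TMD8, close to the 20.7% and 20% of all genes, with a median of 0.05. BCL2, the anti-apoptotic protein that venetoclax blocks, was at 1198 and 1184 CPM in U2932 and 126 and 186 CPM in TMD8, 7.64-fold higher in U2932 (edgeR adjusted p = 2.069e-05). MCL1, a second guardian of the same family, was at 2432 and 2414 CPM in U2932 and 424 and 429 CPM in TMD8, 5.68-fold higher. PMAIP1 (NOXA), the protein that binds MCL1 and blocks it, was at 1727 and 1729 CPM in U2932 and 126 and 100.5 CPM in TMD8, so a protector and its antagonist were both higher in U2932. BIK, another BH3-only killer, was 19.6-fold higher in U2932, and the TRAIL receptor TNFRSF10A 8.64-fold. On the TMD8 side stood BCL2L11 (BIM), at 100.5 and 95.9 CPM in U2932 and 346 and 441 CPM in TMD8, the effectors BAX (-1.46 ± 0.22) and BAK1 (-1.38 ± 0.21), and BID (-1.75 ± 0.27).

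In the cell cycle list, 10 of 37 tested members (27%) were higher in U2932 and 4 (10.8%) in TMD8, 37.8% called against 40.7% of all genes. MYC, the growth-promoting transcription factor, was at 8.96 and 8.31 CPM in U2932 and 135 and 154 CPM in TMD8, 16.7-fold higher in TMD8 (edgeR adjusted p = 8.386e-07). The brakes on the G1 phase were lopsided. CDKN2A, which encodes the CDK inhibitor p16 and the p53 activator p14ARF, was at 243 and 217 CPM in U2932 with no count in TMD8 (at least 3360-fold higher in U2932), and CDKN2B (p15) was at 25.8 and 23.4 CPM with no count in TMD8. CDKN2C (p18) was 6.48-fold higher in U2932, and RB1, the protein these inhibitors protect, was at 76.5 and 76.4 CPM in U2932 and 242 and 301 CPM in TMD8. The proliferation marker MKI67 was at 301 and 358 CPM in U2932 and 528 and 1007 CPM in TMD8, a difference of -1.22 ± 0.32 that was -0.70 without TMD8 replicate 2. MKI67 was not called without U2932 replicate 1 or 2 either (edgeR adjusted p = 0.113 and 0.0595).

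Several of these genes were neighbours, so the differences were also read along the chromosomes. On GRCh38, CDKN2A (chr9:21967753-21995301) and CDKN2B lie beside MTAP (chr9:21802543-21937651), the enzyme that salvages methylthioadenosine. MTAP was at 73.5 and 79.7 CPM in U2932 and had no count in either TMD8 library. All 5 tested genes from MTAP to CDKN2B had no count in TMD8, and KLHL9, the nearest tested gene before MTAP, was at 43.9 and 43.9 CPM in U2932 and 49.6 and 41.6 CPM in TMD8, a difference of -0.05 ± 0.21. The bounds of this stretch and of those on chromosome 18 were chosen after the values were seen. On chromosome 18, 38 of 41 tested genes from TXNL1 to VPS4B (chr18:56597208-63422483) were higher in U2932, 1 in TMD8 and 2 in neither, with a median difference of 3.21. That stretch holds BCL2, MALT1 and PMAIP1, together with LMAN1, a cargo receptor for secretion, at 5741 and 6149 CPM in U2932 and 252 and 239 CPM in TMD8, and SEC11C, a subunit of the signal peptidase, at 2394 and 2449 CPM and 147 and 87.7 CPM. Over the next stretch, from SERPINB8 to ZNF236-DT (chr18:63969925-76822295), the sign turned, and 15 of 18 tested genes were higher in TMD8 and 1 in U2932, with a median of -2.29. There TMX3, a disulfide isomerase of the endoplasmic reticulum, was at 122 and 124 CPM in TMD8 with no count in U2932, and the activating receptor CD226 was at 0.613 and 1.36 CPM in U2932 and 113 and 108 CPM in TMD8. CDH2, DSG2, PIEZO2 and ZBTB7C lie on chromosome 18 too, outside both stretches, and over the whole chromosome 95 of 266 tested genes (35.7%) were higher in U2932 and 66 (24.8%) in TMD8. On chromosome 10, 249 of 567 tested genes (43.9%) were higher in TMD8 and 56 (9.88%) in U2932, with a median of -0.86. Over all genes tested, 20.7% were higher in U2932 and 20% in TMD8. DNA copies were not measured in this series.

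**Figure D5:**
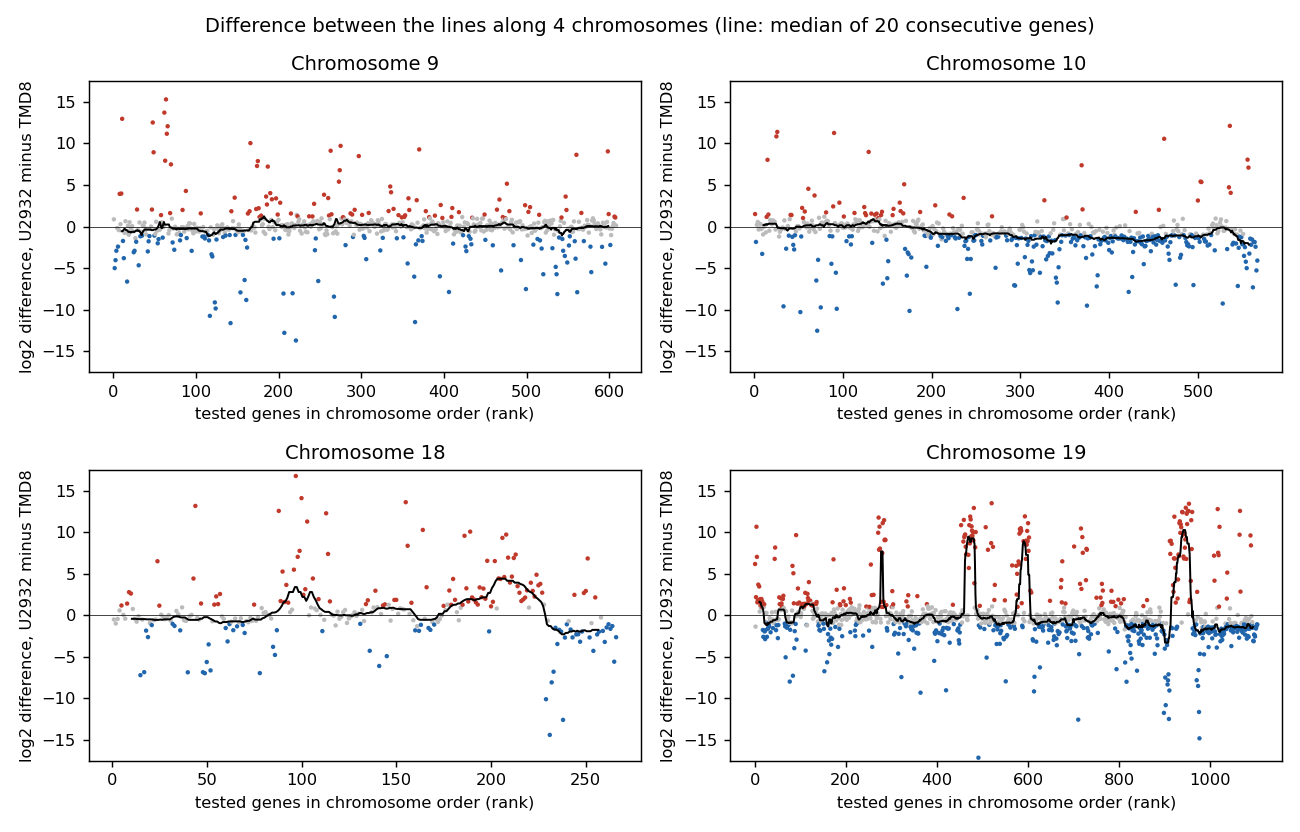
Log2 difference (U2932 minus TMD8) of each tested gene in chromosome order on chromosomes 9, 10, 18 and 19, with red points for genes higher in U2932, blue for genes higher in TMD8, grey for the rest, and a black line for the median of 20 consecutive genes. Chromosome 19 shows separate peaks of the median, the highest at 10.25, and the median on chromosome 18 rises to 4.4 and then falls below 0 to -2.29.

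Among 15144 windows of 20 consecutive tested genes, the 5th percentile of the medians was -1.09 and the 95th was 1.18, and the 3 highest separate windows all lay on chromosome 19. They were at chr19:52397849-53214522 (median 10.25, 19 of 20 genes higher in U2932), chr19:19900913-23250390 (median 9.45, 16 of 20) and chr19:36797518-37719790 (median 8.91, 15 of 20). They consist largely of genes for zinc finger proteins, many of which silence transposable elements. ZNF83 was at 54.4 and 57.4 CPM in U2932 and 0.0592 and 0 CPM in TMD8, and ZNF43 was at 9.62 and 9.30 CPM in U2932 with no count in TMD8. ZNF93 (15.1 and 17.4 CPM) and ZNF568 (6.46 and 6.72 CPM) were likewise read in U2932 alone. Not every member was silent in TMD8, since ZNF420 was at 32.6 and 31.6 CPM in U2932 and 12.9 and 10.5 CPM in TMD8. Across chromosome 19, 99 of 211 tested zinc finger genes (46.9%) were higher in U2932, 58 (27.5%) were higher in TMD8 and 63 (29.9%) had no count in TMD8, while 0 had no count in U2932. Among 230 zinc finger genes on other chromosomes, 45 (19.6%) were higher in U2932 and 11 (4.78%) had no count in TMD8, and among 701 other protein-coding genes of chromosome 19, 80 (11.4%) were higher in U2932 and 254 (36.2%) in TMD8. Of those 701 genes, 9 (1.28%) had no count in TMD8. The genes with no count in TMD8 passed the count filter through U2932 alone, so their direction was fixed by the filter. These zinc finger counts were made after the windows had been seen. Outside chromosome 19, ZNF141 (66.8 and 81.4 CPM) and ZNF518B (82.7 and 102 CPM) on chromosome 4 had no count in TMD8 either.

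The promoters of zinc finger genes are given below for 3 members of these windows, to show how much CpG each holds. The RefSeq windows of GRCh38.p14, 250 bases before the start, lie at chr19:52690497-52690746 (minus strand) for ZNF83, chr19:21836183-21836432 (minus strand) for ZNF43 and chr19:37078183-37078432 (plus strand) for ZNF420, and CpG dinucleotides are in capitals.
ZNF83: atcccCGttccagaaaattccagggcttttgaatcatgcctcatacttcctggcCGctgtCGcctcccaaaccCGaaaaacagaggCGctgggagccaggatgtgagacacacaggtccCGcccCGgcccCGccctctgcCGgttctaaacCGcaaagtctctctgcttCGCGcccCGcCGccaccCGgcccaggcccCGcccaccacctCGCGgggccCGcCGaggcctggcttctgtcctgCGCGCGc
ZNF43: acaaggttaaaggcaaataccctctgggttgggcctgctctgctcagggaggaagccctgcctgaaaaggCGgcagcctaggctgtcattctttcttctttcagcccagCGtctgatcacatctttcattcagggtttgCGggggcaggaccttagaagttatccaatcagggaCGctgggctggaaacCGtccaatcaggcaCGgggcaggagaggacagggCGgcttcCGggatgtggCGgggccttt
ZNF420: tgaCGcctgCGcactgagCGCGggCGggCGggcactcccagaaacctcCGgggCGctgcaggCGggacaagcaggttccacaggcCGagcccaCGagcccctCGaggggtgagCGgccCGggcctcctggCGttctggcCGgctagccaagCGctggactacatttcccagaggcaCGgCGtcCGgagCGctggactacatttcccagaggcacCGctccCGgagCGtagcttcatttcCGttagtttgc
The windows held 23, 9 and 25 CpG dinucleotides. The median was 12.5 in the 54 promoters found for chromosome 19 zinc finger genes with no count in TMD8, 17 in the 103 of tested ones that were not higher in U2932, and 21 over all tested genes. CpG methylation was not measured in this series.

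Immune receptor genes lay in the 2 lowest windows of 20 genes. In chr19:50819148-51649610 (median -3.29, 16 of 20 genes higher in TMD8), the sialic acid receptor SIGLEC10, which binds CD24, was at 0.330 and 0.0908 CPM in U2932 and 564 and 902 CPM in TMD8, SIGLEC6 at 0.283 and 0.363 CPM and 540.5 and 642 CPM, and SIGLEC14 at 26.6 and 38.6 CPM in TMD8 with no count in U2932. In chr1:156728442-158849506 (median -3.17, 14 of 20), the Fc receptor-like genes FCRL2 (-4.96 ± 0.25), FCRL3 (-3.25 ± 0.23), FCRL4 (-6.37 ± 0.35) and FCRL5 lay with MNDA, CD1C and CD1D. FCRL4, a marker of a tissue-resident memory B cell, was at 0.377 and 0.227 CPM in U2932 and 27 and 23.9 CPM in TMD8. The third window by this order was chr18:63415317-76822295 (median -2.29, 16 of 20). In windows of 40 genes the lowest were chr18:63389190-80247546 (median -1.92), chr19:54137717-55653161 (-1.84) and chr2:153871913-169701708 (-1.83). The SIGLEC and FCRL stretches were thus not among the lowest at that size.

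The metabolic lists differed in the share of members called. In the list of the tricarboxylic acid cycle and respiratory chain, 2 of 46 tested members were higher in U2932, 4 in TMD8 and 40 in neither, 13% called against 40.7% of all genes, and the 4 became 1 without U2932 replicate 2 and 2 without U2932 replicate 1 or TMD8 replicate 1. The 2 were SDHD, a subunit of succinate dehydrogenase (178 and 183 CPM in U2932, 51 and 31.9 CPM in TMD8), and the malic enzyme ME1 (27.1 and 26.4 CPM, 0.0592 and 0 CPM). In glycolysis and hypoxia, 7 of 42 were higher in U2932 and 11 (26.2%) in TMD8, 42.9% called. The hexokinase HK1 (-1.43 ± 0.26) and PGAM1, at 160.5 and 158 CPM in U2932 and 532 and 468 CPM in TMD8, were higher in TMD8, and the enolase genes were exchanged, ENO3 being 8-fold higher in TMD8 and ENO2 5.78-fold higher in U2932. ADM, a peptide hormone induced by hypoxia, was at 59 and 55.6 CPM in U2932 and 0 and 0.186 CPM in TMD8.

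Lipid synthesis was balanced as a list, with 7 of 44 tested members higher in U2932 and 6 in TMD8. The median was 0.01, and 29.5% were called against 40.7% of all genes. The fatty acid desaturase FADS2 was at 113 and 91.9 CPM in U2932 and 0.473 and 1.30 CPM in TMD8, its neighbour FADS1 at 138 and 126 CPM and 19 and 22.7 CPM, and the sterol desaturase SC5D was 11.4-fold higher in U2932. TMD8 instead had the fatty acid transporter CD36, at 209 and 154 CPM against 1.84 and 3.04 CPM in U2932. Among serine, one-carbon, glutamine and amino acid genes, 14 of 48 (29.2%) were higher in U2932 and 7 (14.6%) in TMD8. In total 43.8% were called, against 40.7% of all genes, and the 14 became 9 with at least 10 counts required in every library. PHGDH, the first enzyme of serine synthesis, was at 157 and 130.3 CPM in U2932 and 28.8 and 27.8 CPM in TMD8 (2.34 ± 0.22, edgeR adjusted p = 1.782e-05). The glutamine carrier SLC1A5 (1.62 ± 0.24) was higher in U2932, and the transsulfuration enzyme CBS (18.8 and 12.8 CPM) and DPYD, which degrades pyrimidines (19 and 21.7 CPM), had no count in TMD8. The thymidine phosphorylase TYMP was at 1.23 and 1.32 CPM in U2932 and 74.4 and 88.4 CPM in TMD8, and KYNU, of tryptophan breakdown, was 8.06-fold higher in TMD8.

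The study paired the antibodies with the drugs of CHOP (cyclophosphamide, doxorubicin, vincristine and prednisone), so the genes that handle these drugs were listed too. Of 47 listed, 39 were tested. Of these, 7 (17.9%) were higher in U2932 and 9 (23.1%) in TMD8, close to the 20.7% and 20% of all genes. The doxorubicin target TOP2A was at 543 and 662 CPM in U2932 and 766 and 547 CPM in TMD8. The groups overlapped, and the difference of -0.12 ± 0.26 did not pass the test (edgeR adjusted p = 0.721). The glucocorticoid receptor NR3C1, through which prednisone acts, was at 202 and 224 CPM in U2932 and 119 and 128 CPM in TMD8, a difference below 2-fold (0.79 ± 0.21). Among the tubulins that vincristine binds, TUBB6 was at 3.16 and 3.13 CPM in U2932 and 322 and 303 CPM in TMD8, 99.5-fold higher in TMD8 (edgeR adjusted p = 3.26e-07). The efflux pump ABCB1, which exports doxorubicin and vincristine, was low in both lines but at 3.02 and 3.54 CPM in U2932 and 0 and 0.111 CPM in TMD8, a ratio of counts of 48 (95% counting interval 16.1 to 236). ABCG2 was the reverse, at 0.189 and 0.182 CPM in U2932 and 3.31 and 3.34 CPM in TMD8, and NQO1, a quinone reductase, was 6.89-fold higher in TMD8. ATM, the kinase that senses DNA double-strand breaks, was at 246 and 309 CPM in U2932 and 94.8 and 106 CPM in TMD8.

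MAPK feedback and AP-1 genes were called in 19 of 27 tested members (70.4%, against 40.7% of all genes). Of these, 11 were higher in U2932 and 8 in TMD8. The 11 became 7 with at least 10 counts required in every library, and 6 in the ofatumumab libraries. JUN was at 16.1 and 14.8 CPM in U2932 and 80.3 and 81.9 CPM in TMD8, and ATF3 (-3.09 ± 0.22), BATF3 (-3.88 ± 0.31) and the ERK phosphatase DUSP5 (-3.40 ± 0.22) were higher in TMD8 as well. FOS was at 3.96 and 4.63 CPM in U2932 and 0.414 and 0.742 CPM in TMD8, and EGR3 (3.11 ± 0.33) and the p38 and JNK phosphatase DUSP10 (3.03 ± 0.26) were also higher in U2932. The AP-1 partners thus pointed opposite ways. In the Notch list, 7 of 25 tested members (28%) were higher in each line, against 20.7% of all genes in U2932 and 20% in TMD8. Those higher in U2932 were 3 with at least 10 counts required in every library, and 4 in the ofatumumab libraries. NOTCH2 was at 14.4 and 11.9 CPM in U2932 and 57.3 and 169 CPM in TMD8 and NOTCH1 at 14.3 and 10.9 CPM and 16 and 69.2 CPM, with TMD8 replicates that lay far apart for both. Without TMD8 replicate 2 the difference of NOTCH1 was -0.36 and was not called (edgeR adjusted p = 0.113), nor was it called by DESeq2 with all 4 libraries (adjusted p = 0.122). Without TMD8 replicate 2 the difference of NOTCH2 was -2.14. The targets HES1 (42.3 and 44.6 CPM in U2932, 0.710 and 0.371 CPM in TMD8) and HEY2 (5.88 ± 0.35) were higher in U2932. Of 32 tested TGF-beta and BMP genes, 11 (34.4%) were higher in U2932 and 3 (9.38%) in TMD8, against 20.7% and 20% of all genes. In total 43.8% were called, against 40.7% of all genes. The 11 became 7 with at least 10 counts required in every library. TGFB1 itself was at 47.1 and 35 CPM in U2932 and 115 and 193 CPM in TMD8 and its mediator SMAD3 differed by -2.75 ± 0.29. SMAD1, a mediator of BMP, was at 7.21 and 6.67 CPM in U2932 with no count in TMD8, and the BMP targets ID1 (2.34 ± 0.28) and ID3 (2.42 ± 0.24) and the TGF-beta binding protein LTBP1 (4.87 ± 0.32) were higher in U2932.

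Of the protein-coding genes that took the most counts among those called, those higher in TMD8 included genes of protein synthesis and folding. The elongation factor EEF1A1 was at 4997 and 5235 CPM in U2932 and 19120 and 11170 CPM in TMD8, and the ribosomal protein gene RPL13A at 1485 and 1395 CPM and 7761 and 3700 CPM, followed by RPL28 (-1.78 ± 0.28) and RPS6 (-1.51 ± 0.34). The chaperones HSPA8 (-1.76 ± 0.29) and HSP90AB1 (-1.12 ± 0.28), nucleolin (NCL, -1.41 ± 0.28) and PTMA (-1.64 ± 0.29) were also among them. Ribosomal protein genes together took 5.24% and 4.9% of the counts in U2932, and 11.72% and 7.02% in TMD8. The range was 6.69% to 7.27% in the 4 antibody-treated U2932 libraries and 7.75% to 11.68% in those of TMD8, so the level in TMD8 also varied between its own libraries. Without TMD8 replicate 1, the difference of RPL13A was -1.36. EEF1A1, HSP90AB1, NCL and RPS6 were not called when either U2932 library was left out (edgeR adjusted p 0.06 to 0.244), RPS6 was just short of 2-fold without TMD8 replicate 1 (log2 difference -0.997), and PTMA was not called without U2932 replicate 2 (edgeR adjusted p = 0.0518). The corresponding protein-coding genes higher in U2932, immunoglobulin genes not included, were LMAN1, SEC11C, MCL1, PMAIP1, the sialyltransferase ST6GAL1 (2.52 ± 0.25), the histone chaperone ANP32E (2.56 ± 0.26), the phosphatase regulator ENSA (2.29 ± 0.29), the splicing factor HNRNPA3 (1.48 ± 0.24), TXNL1 (3.24 ± 0.27) and the mitochondrially encoded MT-ND5 (1.24 ± 0.29), which was not called when either U2932 library was left out (edgeR adjusted p = 0.0867 and 0.113).

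Markers of other cell types were checked in the same libraries. Of 21 T-cell and NK-cell markers, 8 had enough counts to be tested, and the T-cell receptor chains CD3D, CD3E and CD3G were not among them. LCK, a kinase of T cells and some B-cell tumours, was at 51.3 and 41 CPM in U2932 and 0.177 and 0.186 CPM in TMD8, and GZMB, a protease of cytotoxic cells, was at 0.0472 and 0.136 CPM in U2932 and 286 and 142 CPM in TMD8. Of 16 myeloid markers, 1 was tested and was not called. Of 14 erythroid, epithelial and stromal markers, 6 were tested. The intermediate filament gene VIM was at 0.141 and 0.0454 CPM in U2932 and 564 and 598 CPM in TMD8, EPCAM at 39.3 and 36.9 CPM and 0.177 and 0.111 CPM, and E-cadherin (CDH1) was at 14.6 and 27.1 CPM in TMD8 with no count in U2932.

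Each side of the comparison is 1 cell line, and the methods of the study list both under the activated B-cell subtype. A difference between the lines therefore cannot be assigned to a subtype of DLBCL or to any other property in which they differ. With at least 10 counts required in every library, 1838 genes were higher in U2932 and 1868 in TMD8, and 3716 of the 6372 called genes could still be tested.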

How the data were processed

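RNA of U2932 and TMD8 cells was sequenced in 12 libraries, and the 4 isotype libraries (2 per line) were compared. The authors deposited whole-number counts per gene, not normalized, for 58884 Ensembl gene IDs. The submitters' processing notes name Trim Galore 0.6.0, cutadapt, FastQC, STAR 2.7.0e and DESeq2 1.26.0 and the build GRCh38. The annotation release and the strand setting of the counting are not given in the sources used here, so reads of overlapping or antisense genes may have been shared, and genes whose exons mostly overlap another gene were not described. Symbols were matched for 41967 IDs and GENCODE 29 positions for 58611. No line lacked a gene name, and 0 columns were left out.

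The counts were fitted with edgeR 4.0.16 (R 4.3.3) by the quasi-likelihood test with TMM normalization, no covariate, and filterByExpr at a minimum count of 10. P-values were Benjamini-Hochberg adjusted over all 15652 genes tested, and a gene was called at an adjusted p under 0.05 and at least 2-fold. An SE was the log2 difference divided by the root of its F statistic. CPM of a library was the count over its TMM-scaled size. A fold against a line with no count used a floor of 3 counts over its 2 libraries, ratios of 1 to 3 counts carry exact binomial 95% intervals, and both cover counting error only. Replicates are separate cultures of 1 line, so p-values cover the spread between cultures. The script was tested on simulated data.

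The members and lists were chosen with earlier results of these data known. Besides list members, the text names the 15 protein-coding genes per direction with the largest difference (mean of at least 20 CPM in the higher line, no overlap), the 10 with the highest mean CPM per direction, and called genes in the 3 highest and 3 lowest windows of 20 consecutive tested genes, in each case a selection. The regions on chromosomes 9 and 18, the zinc finger counts, the promoters printed and KLHL9 were chosen after the values were seen. Replicate numbers were checked for pairing, and the deviations of same-numbered libraries correlated at -0.166, so no block entered the fit. Alternatives were upper-quartile and library size scaling, DESeq2 1.42.0, other filters and limits, GC and length corrections, a replicate block, all 12 libraries in one fit, the rituximab or ofatumumab libraries in place of isotype, windows of 40 genes, and each library left out in turn. Figures were drawn with matplotlib 3.10.9. Genes of the Y chromosome, XIST and TSIX are not described. Some other genes are not reported here.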

Additional observations from a re-analysis of the deposited data

How the results depend on the processing

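Under 14 other settings of the fit or the libraries compared, the counts of genes higher in U2932 and in TMD8 stayed within 1.5 times of 3243 and 3129, with 1 exception. With at least 10 counts required in every library, 12291 genes were tested and 1838 and 1868 were called. Of the 6372 genes called, 3716 could still be tested under that filter, and 3688 of these were called in the same direction. DESeq2 called 2881 and 2902, and leaving out 1 library at a time gave 2729 to 3593 genes higher in U2932 and 2635 to 3629 higher in TMD8. Scaling by library size alone moved the median of all genes from -0.013 to 0.111 and gave 3530 and 2772. With the replicate number as a block, 3233 and 3068 genes were called. The numbers do not pair the cultures, and a crossed block, chosen after seeing the data, gave 3270 and 3113. Over these settings and the fits with 1 library left out, 997 of 1044 counts of list members were within 1.5 times of the main count. Of 654 medians of lists and windows, those of windows of 40 genes included, 468 moved by less than the spread between replicates. KLHL9 was at 0.01 with upper-quartile scaling, at 0.076 with library size alone, and from -0.196 to 0.076 with 1 library left out. TOP2A was at 0.011 with library size alone and from -0.367 to 0.14 with 1 library left out. In the rituximab libraries CD55 was at -0.057 and GBP2 at -0.174. The cause of these changes was not tested. In windows of 40 genes the highest medians were 8.04, 7.76 and 5.46, and the lowest were -1.92, -1.84 and -1.83. Depth limits genes with a few counts, where a count of 0 in a line is bounded only by the floor of 3 counts.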
